A study of Mus musculus with 12 samples.

Results

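The enzyme families that handle drugs, dietary toxins and other foreign compounds were followed in mouse small intestine after loss of Apc, p53 or both. They comprised the cytochrome P450 families Cyp2, Cyp3 and Cyp4, the UDP-glucuronosyltransferases Ugt1 and Ugt2, the glutathione S-transferases (Gst), the sulfotransferases (Sult) and the carboxylesterases (Ces). Genes were taken by symbol, where a probe set with 1 gene symbol was detected (detection p under 0.05) on at least 3 arrays, and each gene was read from its probe set of highest mean log2 signal. Detection was read on the 9 arrays of the Apc-deficient, p53-deficient and control mice, since the detection columns of the 3 double-deficient arrays name no single mouse and were not used. Of 84 genes of these families with such a probe set, 63 were members: 16 Cyp2, 3 Cyp3, 7 Cyp4, 6 Ugt2, 16 Gst, 5 Sult and 10 Ces genes. Ugt1 had 0 members, since its 3 probe sets each list several Ugt1a genes. The other 21 genes were not detected on 3 of the 9 arrays, 6 of them being detected on 2 arrays, while 5 members were detected on exactly 3 arrays. The whole series held 11570 genes under the same rule. Cyp1 genes were left out.

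Each of 12 mice gave RNA for its own Affymetrix array, and each of the 4 genotypes had 3 mice. Double-deficient mice were AhCre-positive, Apcfl/fl and p53-/- (labelled APCflox hom, P53 null). Apc-deficient mice were AhCre-positive and Apcfl/fl with p53 intact, p53-deficient mice were AhCre-positive and p53-/- with Apc intact, and control mice were AhCre-positive and wild-type for both genes. All 4 genotypes carried the Cre transgene, were given β-naphthoflavone at 80 mg/kg and were sampled at day 5, which the labels describe as 3 injections and the methods as daily injections. The Ah-cre transgene is driven by a Cyp1a promoter, and β-naphthoflavone is an aryl hydrocarbon receptor ligand that can itself induce drug-metabolising enzymes, so every group had met the inducer. Apc was deleted only in cells in which Cre was induced, whereas the p53 null allele was constitutive. The mice were adult, and the sources used here do not give their exact age or strain background.

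Drug metabolism in the gut is usually described in steps. Cytochrome P450 enzymes oxidise a compound and carboxylesterases split its ester or amide bonds, after which UDP-glucuronosyltransferases, sulfotransferases and glutathione S-transferases attach a sugar acid, a sulfate or glutathione so that transporters can export it. In the small intestine most of these enzymes are known to be made by mature enterocytes of the villus, while crypt cells make fewer of them. Several members also act on the body's own molecules, such as retinoids, steroids, fatty acids and eicosanoids.

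Among the 3 p53 probe sets, 1 was undetected on all p53-deficient arrays and lay at a scaled signal of 7.53 ± 6.59 in double-deficient (mean ± SD, n = 3) and 10 ± 2.02 in p53-deficient intestines, against 344 ± 63.9 in Apc-deficient and 222 ± 44.9 in control intestines. A second stayed measurable without p53, at 215 ± 39.2 in double-deficient and 135 ± 22 in p53-deficient against 366 ± 57.6 in control intestines. The last, detected on 1 of the 9 arrays, went the other way, at 71.1 ± 13.1 in double-deficient and 32.9 ± 16.3 in p53-deficient against 16.8 ± 4.29 in Apc-deficient and 24.9 ± 5.69 in control intestines. The tissue label was checked with 15 enterocyte genes, of which 0 were undetected in any of the 3 genotypes with detection. Double-deficient replicate 3 and control replicate 3 stood apart through exocrine pancreas transcripts, whose 6 measured genes summed to 13074 and 37803, against 953–3790 on the other 10 arrays. Of 8 liver genes, 1 was measured. Codes in the names of the detection columns differ between the genotypes and their meaning is not given in the sources, so a processing batch and genotype cannot be told apart.

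Scaled signals below are array signals brought to a common mean log2 value, so that a signal compares arrays for 1 probe set and not 1 gene with another. Log2 changes are given ± SE with p-values adjusted over all 35622 probe sets tested (limma, Benjamini-Hochberg), and a gene was called at an adjusted p under 0.05. The comparisons with control share the 3 control arrays, and those of the double-deficient mice share the 3 double-deficient arrays, so their results are not independent. A set of 36 members was named by a rule on signal and size of change, and other members are named after their values had been seen.

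After loss of Apc alone, genes of each of the 7 families that had members were lower. Against control, 30 of 63 members were lower and 2 were higher in Apc-deficient intestines, which is 47.6% lower, beside 10.8% lower and 23.9% higher among the 11570 genes under the same rule. The members' median log2 change was -1.16, while the median over all those genes was 0.21. Before adjustment, 40 members were lower (beside 16.2% of all genes) and 3 higher (beside 31.8%) at p under 0.05, and 57 had a negative change (beside 40.3%). Detection was not needed in the Apc-deficient group, and 7 members were undetected on all its arrays. Of the 51 members detected on at least 1 array of each of the 3 genotypes with detection, 24 were lower (47.1%, beside 10.3% of 10302 genes so detected). By family, calls of lower signal numbered 8 of 16 in Cyp2 (median -1.05), 1 of 3 in Cyp3 (-1.50), 2 of 7 in Cyp4 (-1.16), 4 of 6 in Ugt2 (-1.21), 7 of 16 in Gst (-0.84), 3 of 5 in Sult (-1.82) and 5 of 10 in Ces (-1.14). The 2 members that rose were Cyp2e1 and Gstm5.

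Combined loss of Apc and p53 gave fewer calls in the same direction. Against control, 20 of 63 members were lower in double-deficient intestines (31.7%, beside 7.62% of all genes under the rule) and 1 was higher (beside 11.4%), with a median of -0.77 against 0.09 for all genes. Against p53-deficient intestines, 20 members were lower in double-deficient intestines (31.7%, beside 8.12%) and 1 was higher (beside 5.97%), with a median of -0.67 against -0.03. Of the same 51 members, 15 were lower against control (beside 7.53%) and 19 against p53-deficient intestines (beside 8.52%). In all, 27 of the 63 members were called in none of the 6 comparisons made, beside 59.0% of all genes under the rule.

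Loss of p53 alone gave 0 calls among the 63 members, beside 0.13% of all genes under the rule in either direction. At an unadjusted p under 0.05, 1 member was higher (beside 9.01% of all genes) and 5 were lower (beside 3.79%), and the members' median was 0.09 against 0.14 for all genes. The half-width of the 95% confidence interval of a member's change, which is not adjusted for many tests, had a median of 0.78 with 3 mice against 3. Changes above that size also went uncalled, such as 1.18 ± 0.42 for Ces2g (adjusted p = 0.23) and -1.45 ± 0.63 for Cyp2c55 (adjusted p = 0.3). The 0 calls therefore do not exclude changes of that size. Double-deficient against Apc-deficient intestines also gave 0 calls, beside 0.0778%, with 6 members higher (beside 3.64%) and 2 lower (beside 12.3%) at an unadjusted p under 0.05.

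**Figure D1:**
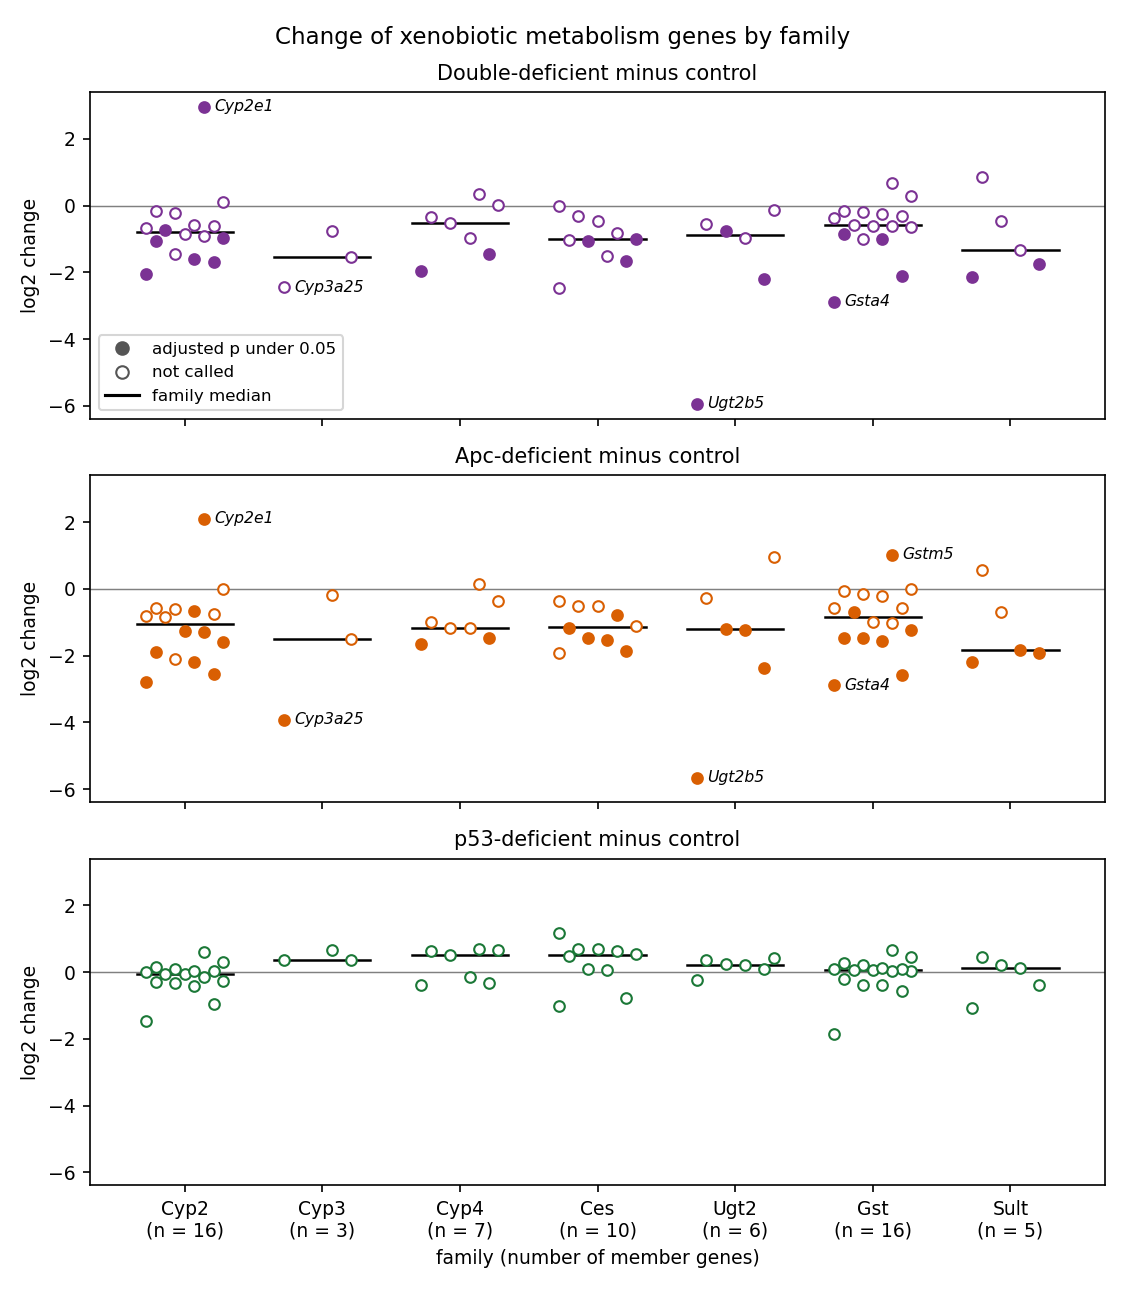
Log2 change of each member (points, by enzyme family) in double-deficient, Apc-deficient and p53-deficient against control intestines, with filled points for members called by limma at an adjusted p under 0.05 and a line at each family's median. In both genotypes with Apc loss the 7 family medians lie below 0 and Cyp2e1 lies above 0, whereas 0 members are called in p53-deficient intestines. The Ugt2b5 points are fitted values of signals near the detection limit and give no size.

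The calls with the pancreas-bearing arrays left out were fewer. Without double-deficient replicate 3 and control replicate 3, 22 members were called in Apc-deficient (20 lower) and 3 in double-deficient against control intestines (Cyp2e1, Ugt2b5 and Gstm3), and 6 in double-deficient against p53-deficient intestines. Calls over all probe sets fell too, to 15.5%, 2.53% and 2.23% in the same comparisons without these arrays, against 27.1%, 15.6% and 9.4% with all arrays. The medians of the members moved little, to -1.11, -0.72 and -0.72. Leaving out any other single control or double-deficient array also reduced the double-deficient calls, to 13 each without control replicates 1 and 2 and to 16 and 8 without double-deficient replicates 1 and 2.

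Enterocyte markers moved in the same direction as the members. Of 15 enterocyte genes measured, 7 were lower against control in double-deficient (median -0.96) and 7 in Apc-deficient intestines (-0.86), and 10 in double-deficient against p53-deficient intestines (-1.62). The shares called lower among all genes under the rule were 7.62%, 10.8% and 8.12% in the same order. Their summed scaled signal was 49279, 40376 and 29333 on the double-deficient arrays and 26995, 46691 and 62571 on the Apc-deficient arrays. It was 116208, 109792 and 98416 on the p53-deficient arrays and 80086, 74870 and 64801 on the control arrays. All double-deficient and Apc-deficient sums lay below all control sums. In RNA of whole tissue, fewer cells of a type and less RNA per cell cannot be told apart, and the part of enterocyte content in the members' changes was not tested. Proliferation genes moved the other way, with 9 of 12 higher in double-deficient (beside 11.4% of all genes) and 10 of 12 higher in Apc-deficient intestines (beside 23.9%) against control.

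**Figure D2:**
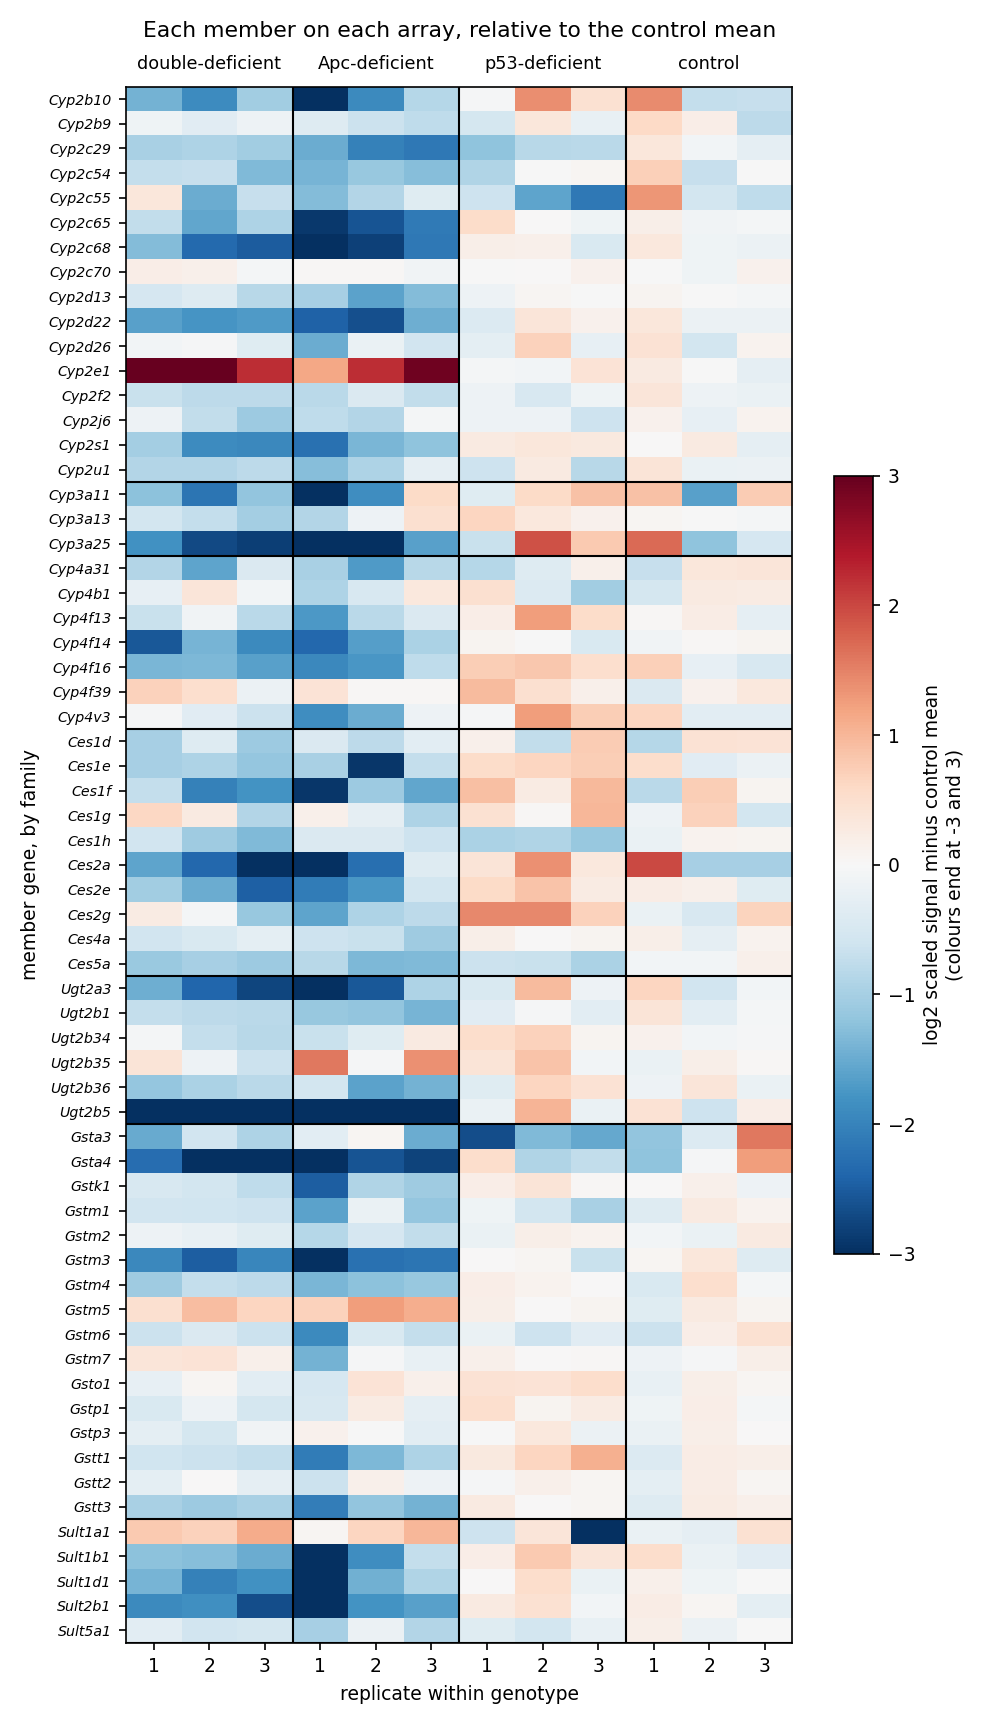
Log2 signal of each of the 63 members on each of the 12 arrays (columns, grouped as double-deficient, Apc-deficient, p53-deficient and control), shown as the difference from that member's mean over the 3 control arrays. The median difference over members was -0.68 to -0.83 on the double-deficient arrays and -0.77 to -1.37 on the Apc-deficient arrays, against 0.01 to 0.18 on the p53-deficient and -0.04 to 0.06 on the control arrays.

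The arrays of a genotype were not alike. The median difference of the members from the control mean was -0.68, -0.72 and -0.83 on the double-deficient arrays and -1.37, -0.94 and -0.77 on the Apc-deficient arrays. Apc-deficient replicate 1 held the lowest members and the lowest enterocyte sum of its genotype, and replicate 3 the highest of both. Sult genes spread most across the Apc-deficient arrays after the 3 Cyp3 genes, with family medians of -3.12, -1.45 and -0.88, while Ugt2 medians were -0.90, -1.39 and -1.15.

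Cyp2c genes are clustered on mouse chromosome 19 and include epoxygenases of arachidonic acid and drug oxidases. Cyp2c65, a Cyp2c enzyme known from the mouse gut, had scaled signals of 870, 490 and 756 in double-deficient, 196, 239 and 330 in Apc-deficient, 2120, 1456 and 1320 in p53-deficient and 1638, 1334 and 1374 in control intestines. Every Apc-deficient array lay below every double-deficient array, and both genotypes lay below all p53-deficient and control arrays. The log2 change was -2.54 ± 0.29 in Apc-deficient (5.80-fold lower, adjusted p = 0.0007) and -1.07 ± 0.29 in double-deficient intestines against control (adjusted p = 0.032). Cyp2c65 was 1.46 ± 0.29 higher on the log2 scale in double-deficient than in Apc-deficient intestines, with an adjusted p of 0.065 that missed the threshold. Like those of Ces1f, Cyp2b10, Cyp4v3, Gstm3 and Ugt2b34, the Cyp2c65 probe set is marked as matching several transcripts. The share of each gene in these signals is therefore uncertain. Cyp2c68, of the same cluster, had 279, 137 and 121 in double-deficient and 65.1, 98.3 and 156 in Apc-deficient intestines, against 778, 770 and 500 in p53-deficient and 853, 623 and 610 in control intestines. Cyp2c68 overlapped between both genotypes with Apc loss and fell by 2.78 ± 0.39 in Apc-deficient and fell by 2.05 ± 0.39 in double-deficient intestines against control (adjusted p = 0.0014 and 0.0096).

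The Cyp2c genes differed among themselves. Cyp2c29 averaged 145 ± 6.09 in double-deficient and 79.0 ± 20 in Apc-deficient, 150 ± 22.2 in p53-deficient and 290 ± 64.8 in control intestines (SD, n = 3). It fell by 1.88 ± 0.24 in Apc-deficient and fell by 0.98 ± 0.24 in double-deficient intestines against control (adjusted p = 0.00099 and 0.023). Its change in p53-deficient intestines against control was -0.95 ± 0.24, which was not called (adjusted p = 0.12), although the values of these groups did not overlap. Its 3 double-deficient and 3 p53-deficient values overlapped, with a difference of -0.04 ± 0.24. Cyp2c54 fell by 1.26 in Apc-deficient intestines (adjusted p = 0.029), and Cyp2c55 was not called (-0.84 ± 0.63, adjusted p = 0.34). Cyp2c70, a bile acid hydroxylase of mouse liver, averaged 80.1 to 86.5 in the 4 genotypes and had a change of -0.01 ± 0.17 in Apc-deficient intestines (95% CI -0.39 to 0.37). It was undetected on all p53-deficient arrays, so these levels lie near the detection limit.

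Promoters of 4 members shared a run of letters. Stretches of 250 bases before the gene start were available from RefSeq for 54 of the 63 members (GRCm38.p6), and the HNF4A motif CAAAGTCCA, searched on both strands, was present in 4 of them (7.41%) and in 126 of 32851 promoters of the same length (0.384%). Cyp2c65, Cyp2c68 and Cyp2c70 belong to the chromosome 19 cluster, so these matches are not independent. Each member was read from 1 promoter, whereas the 32851 promoters were not reduced to 1 per gene. HNF4A is a nuclear receptor of enterocytes and hepatocytes. The promoters are shown to set genes that fell (Cyp2c65 and Cyp2c68) beside genes that were not called (Cyp2c70 and Cyp3a11) with the same motif, given in capitals, and CACGC in Cyp2c68 is also in capitals as the reverse complement of the aryl hydrocarbon receptor core GCGTG.
Cyp2c65, chr19:39060756-39061005 (+ strand): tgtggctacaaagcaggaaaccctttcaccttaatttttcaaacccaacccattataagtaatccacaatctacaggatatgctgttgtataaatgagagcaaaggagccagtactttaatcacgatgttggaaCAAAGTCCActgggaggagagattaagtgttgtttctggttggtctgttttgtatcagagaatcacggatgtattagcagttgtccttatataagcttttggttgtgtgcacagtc
Cyp2c68, chr19:39741102-39741351 (- strand): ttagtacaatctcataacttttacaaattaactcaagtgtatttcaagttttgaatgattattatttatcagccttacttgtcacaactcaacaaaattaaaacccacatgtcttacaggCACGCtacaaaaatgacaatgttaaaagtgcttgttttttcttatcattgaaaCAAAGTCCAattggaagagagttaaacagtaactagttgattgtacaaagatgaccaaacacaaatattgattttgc
Cyp2c70, chr19:40187287-40187536 (- strand): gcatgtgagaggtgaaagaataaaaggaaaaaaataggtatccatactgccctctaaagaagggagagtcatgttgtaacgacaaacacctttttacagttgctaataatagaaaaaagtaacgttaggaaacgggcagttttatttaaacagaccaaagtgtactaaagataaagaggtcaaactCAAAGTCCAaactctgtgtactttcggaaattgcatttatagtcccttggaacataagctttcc
Cyp3a11, chr5:145879855-145880104 (- strand): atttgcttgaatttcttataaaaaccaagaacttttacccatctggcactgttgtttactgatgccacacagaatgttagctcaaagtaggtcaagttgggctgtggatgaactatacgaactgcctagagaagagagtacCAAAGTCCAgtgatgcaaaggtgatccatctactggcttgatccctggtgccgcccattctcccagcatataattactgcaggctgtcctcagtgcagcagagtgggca
The motif lay at bases -116 to -108 in Cyp2c65, -77 to -69 in Cyp2c68, -64 to -56 in Cyp2c70 and -109 to -101 in Cyp3a11, counted from the gene start. A match describes these letters only. The 2 genes that were not called do not show an absence of change. Cyp2c70 lay near the detection limit, and Cyp3a11 had changes of -1.53 in double-deficient and -1.5 in Apc-deficient intestines against control (adjusted p = 0.26 and 0.24). Transcripts of Hnf4a itself had a log2 change of 0.12 in double-deficient (adjusted p = 0.81) and 0.46 in Apc-deficient intestines (adjusted p = 0.28) against control.

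Members of the Cyp2d subfamily, on chromosome 15, differed among themselves. Cyp2d22, often described as the mouse counterpart of human CYP2D6, had 77.0, 69.8 and 73.1 in double-deficient, 44.0, 38.2 and 85.8 in Apc-deficient, 178, 305 and 260 in p53-deficient and 301, 211 and 212 in control intestines. All arrays with Apc loss lay below all others, and Cyp2d22 fell by 2.18 ± 0.32 in Apc-deficient and fell by 1.70 ± 0.32 in double-deficient intestines against control (adjusted p = 0.0017 and 0.0094). A second Cyp2d22 probe set gave -0.68 in double-deficient intestines, which was not called (adjusted p = 0.073), and -1.0 in Apc-deficient intestines (adjusted p = 0.012). Cyp2d13 fell by 1.30 ± 0.21 in Apc-deficient intestines (adjusted p = 0.0023). It was detected on 1 Apc-deficient, 1 p53-deficient and 2 control arrays, so its levels lie near the detection limit. Cyp2d26 averaged 1272 ± 149 in double-deficient, 893 ± 365 in Apc-deficient, 1540 ± 641 in p53-deficient and 1469 ± 473.9 in control intestines and was called in no comparison.

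Cyp2s1, an epithelial P450 that metabolises retinoic acid and eicosanoids, had 433, 235 and 229 in double-deficient, 186, 338 and 376 in Apc-deficient, 1047, 1113 and 1066 in p53-deficient and 878, 1047 and 724 in control intestines. The Apc-deficient and double-deficient values overlapped each other and neither overlapped the other genotypes. Its log2 change was -1.61 ± 0.32 in double-deficient and -1.60 ± 0.32 in Apc-deficient intestines against control (adjusted p = 0.011 and 0.006), and -1.91 ± 0.32 in double-deficient against p53-deficient intestines (adjusted p = 0.0067). Cyp2b10, the mouse phenobarbital-inducible P450, had 296, 214 and 384 in double-deficient, 69.3, 211 and 434 in Apc-deficient, 767, 2080 and 1073 in p53-deficient and 2102, 476 and 488 in control intestines. Control replicate 1 was far above the other control arrays, and the change in Apc-deficient intestines was -2.09 ± 0.72 (adjusted p = 0.052). Both other detected Cyp2b10 probe sets were called there, at -1.98 and -2.10 (adjusted p = 0.049 and 0.035). Cyp2u1 was detected on 0 Apc-deficient or p53-deficient arrays and on all 3 control arrays, with 77.8 ± 18.6 in controls and log2 changes that were not called.

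Cyp2e1, the ethanol- and acetone-oxidising P450, went against its family. It had scaled signals of 799, 632 and 330 in double-deficient, 158, 328 and 531 in Apc-deficient, 67.7, 66.8 and 94.0 in p53-deficient and 86.0, 69.9 and 59.1 in control intestines, and was detected on all 9 arrays with detection. Every array with Apc loss lay above every array without it, and the double-deficient and Apc-deficient values overlapped. Cyp2e1 rose by 2.09 ± 0.44 on the log2 scale in Apc-deficient (4.26-fold, adjusted p = 0.0072) and by 2.96 ± 0.44 in double-deficient intestines (7.76-fold, adjusted p = 0.0042) against control, and by 2.87 ± 0.44 in double-deficient against p53-deficient intestines (adjusted p = 0.0047). The difference of 0.87 ± 0.44 between double-deficient and Apc-deficient intestines was not called (95% CI -0.10 to 1.83, adjusted p = 0.35). Cyp2e1 kept its 3 calls under every alternative run.

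Gstm5, a mu-class glutathione S-transferase, was the other member that rose. It had 877, 1185 and 985 in double-deficient, 1012, 1492 and 1335 in Apc-deficient, 708, 636 and 668 in p53-deficient and 487, 761 and 669 in control intestines. All arrays with Apc loss lay above all those without it. The change was 1.01 ± 0.23 in Apc-deficient (2.01-fold, adjusted p = 0.011) and 0.68 ± 0.23 in double-deficient intestines against control (adjusted p = 0.068). With no scaling between arrays the change in Apc-deficient intestines was 0.33 and was not called, and the call was also lost with only the compared genotypes in the fit.

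The promoters of the 2 members that rose are shown with the cores searched for factors that bear on this design: TCF/LEF, which acts downstream of Apc (CTTTGAT or CTTTGAA), the aryl hydrocarbon receptor (GCGTG, or CACGC on the other strand) and NRF2 (TGACNNNGC), with matches in capitals.
Cyp2e1, chr7:140763569-140763818 (+ strand): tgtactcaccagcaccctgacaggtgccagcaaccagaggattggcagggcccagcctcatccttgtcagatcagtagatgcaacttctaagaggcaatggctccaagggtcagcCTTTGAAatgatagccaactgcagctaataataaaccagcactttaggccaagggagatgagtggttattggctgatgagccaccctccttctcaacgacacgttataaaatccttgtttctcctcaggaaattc
Gstm5, chr3:107895604-107895853 (+ strand): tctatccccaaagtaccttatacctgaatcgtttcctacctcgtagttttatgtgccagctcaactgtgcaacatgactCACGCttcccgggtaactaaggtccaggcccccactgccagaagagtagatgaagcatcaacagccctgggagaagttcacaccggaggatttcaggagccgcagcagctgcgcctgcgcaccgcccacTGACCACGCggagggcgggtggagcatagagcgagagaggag
Cyp2e1 held CTTTGAA at bases -135 to -129. Gstm5 held CACGC at -171 to -167 and TGACCACGC at -42 to -34, whose last 5 bases are a second CACGC, so the NRF2 and aryl hydrocarbon receptor cores overlap there. Over the 54 promoters, the TCF/LEF core was found in 5 (9.26%, against 7.48% of all 32851), the aryl hydrocarbon receptor core in 11 (20.4%, against 28.2%) and the NRF2 core in 2 (3.7%, against 10.2%).

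**Figure D3:**
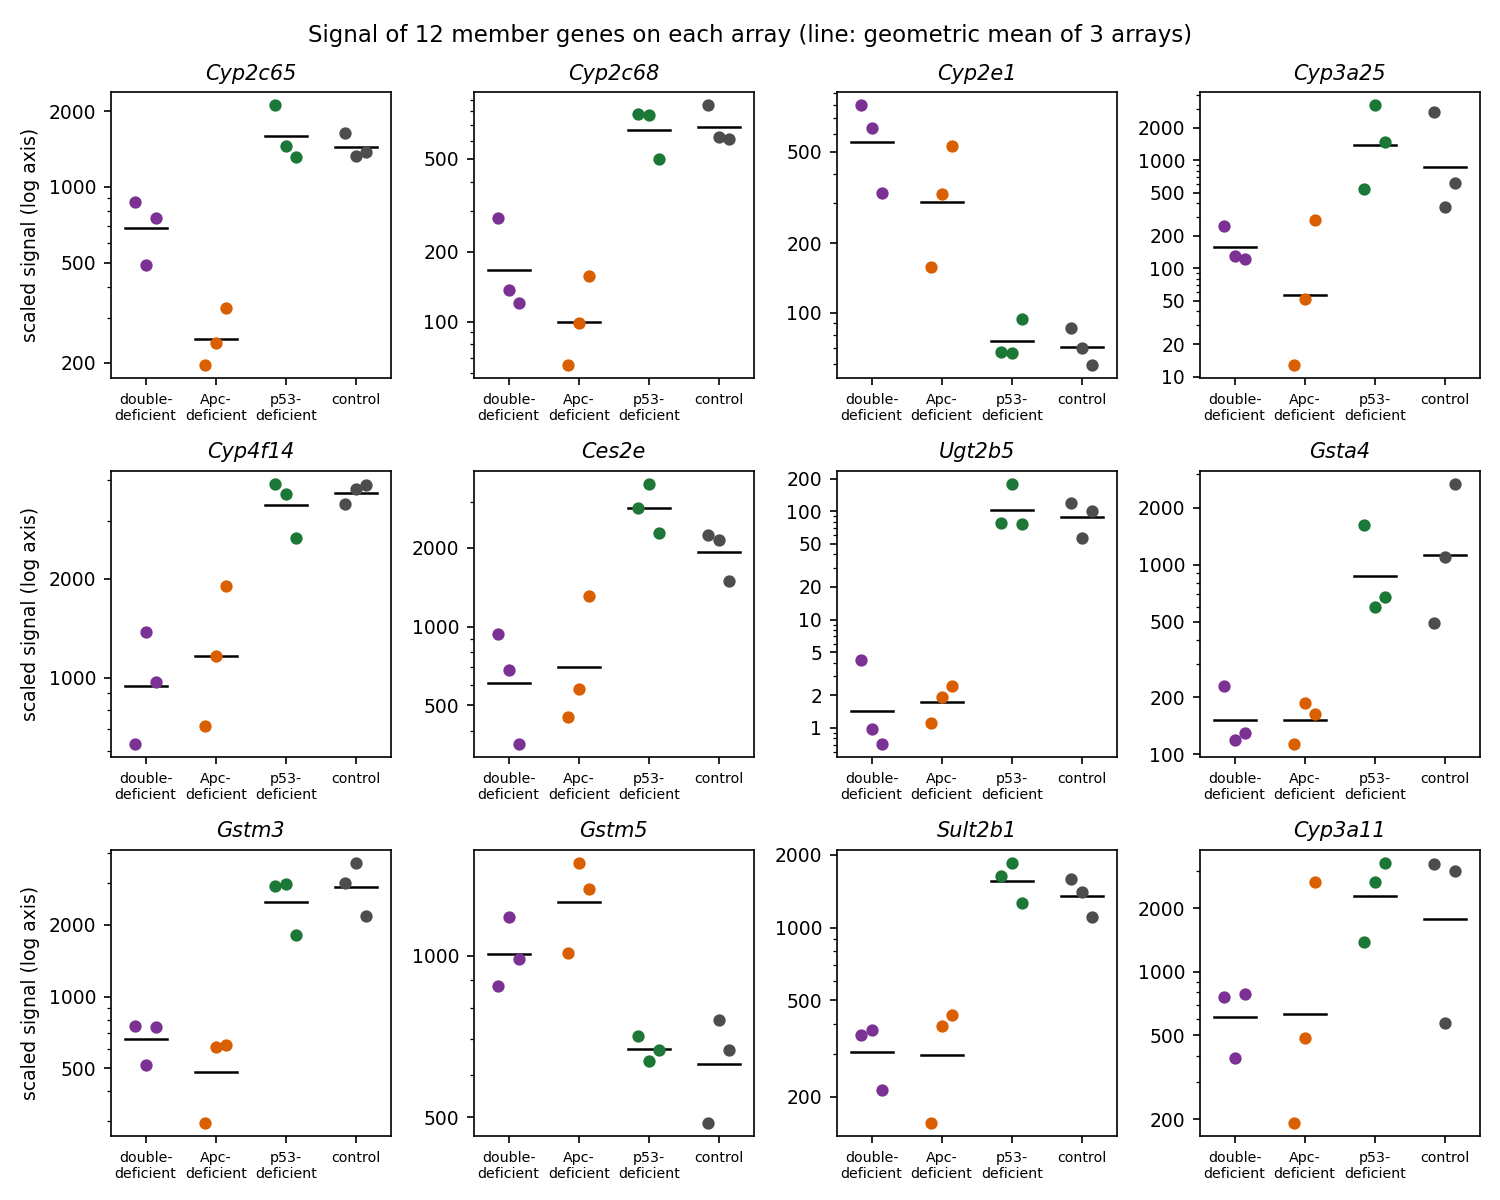
Scaled signal of 12 members on each array (points; log axis), with a line at the geometric mean of 3 arrays, for double-deficient, Apc-deficient, p53-deficient and control intestines from left to right. Cyp2e1 lies between 158 and 799 on the arrays with Apc loss, above 59.1 to 94.0 on the others, and Ugt2b5 lies below 5 on all arrays with Apc loss and above 50 on all others.

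Cyp3a enzymes oxidise a large share of known drugs in liver and gut. Cyp3a13, the mouse Cyp3a form known from intestine, had 2552, 2282 and 1841 in double-deficient, 2034, 3369 and 5268 in Apc-deficient, 5862, 4638 and 4131 in p53-deficient and 3899, 3731 and 3622 in control intestines. The double-deficient values lay below all p53-deficient and control values, while the Apc-deficient values spread across the control range. Its change was -1.13 ± 0.31 in double-deficient against p53-deficient intestines (adjusted p = 0.046), -0.77 ± 0.31 in double-deficient against control (adjusted p = 0.11) and -0.18 ± 0.31 in Apc-deficient against control. Cyp3a11, a target of the pregnane X receptor, had 756, 389 and 785 in double-deficient, 192, 487 and 2657 in Apc-deficient, 1390, 2660 and 3287 in p53-deficient and 3259, 572 and 3002 in control intestines. Single arrays of the Apc-deficient and control groups reached into the other group's range, and the changes of -1.53 ± 0.90 in double-deficient and -1.50 ± 0.90 in Apc-deficient intestines were not called.

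Cyp3a25 gave the widest spread of the Cyp3 genes. It had 244, 131.2 and 122 in double-deficient, 12.8, 51.7 and 280 in Apc-deficient, 540, 3234 and 1476 in p53-deficient and 2810, 373 and 612 in control intestines. Values with Apc loss lay below the others on every array, and the log2 change in Apc-deficient intestines was -3.92 ± 1.08 (adjusted p = 0.023), with detection on 1 of 3 Apc-deficient arrays. The call was lost without control replicate 1 (change -3.07), without Apc-deficient replicate 1 (-2.84) and without Apc-deficient replicate 2 (-3.85).

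Cyp4 enzymes hydroxylate the end of fatty acid and eicosanoid chains. Cyp4f14, which acts on leukotriene B4, had 629, 1380 and 972 in double-deficient, 713, 1167 and 1901 in Apc-deficient, 3882, 3610 and 2661 in p53-deficient and 3372, 3745 and 3867 in control intestines. The arrays with Apc loss lay below the others, and Cyp4f14 fell by 1.65 ± 0.37 in Apc-deficient and fell by 1.95 ± 0.37 in double-deficient intestines against control (adjusted p = 0.0096 and 0.0095). Cyp4f16 had 600, 612 and 510 in double-deficient, 407, 467 and 922 in Apc-deficient, 2620, 2720 and 2237 in p53-deficient and 2572, 1326 and 1125 in control intestines. It fell by 1.48 ± 0.36 in Apc-deficient and fell by 1.45 ± 0.36 in double-deficient intestines (adjusted p = 0.013 and 0.024), without overlap. A second Cyp4f16 probe set gave -0.52 and -0.67 in the same comparisons and was called in neither (adjusted p = 0.094 and 0.057). Cyp4v3, a fatty acid hydroxylase, averaged 1535 ± 328 in double-deficient, 970 ± 648 in Apc-deficient, 3200 ± 1354 in p53-deficient and 2010 ± 832 in control intestines and was not called. Cyp4b1, Cyp4f13, Cyp4f39 and Cyp4a31 were not called in any comparison.

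Carboxylesterases hydrolyse ester drugs and lipids, and all 10 members lie on chromosome 8. Ces2e, an intestinal carboxylesterase, had 939, 685 and 356 in double-deficient, 453, 576 and 1307 in Apc-deficient, 2852, 3514 and 2278 in p53-deficient and 2234, 2142 and 1500 in control intestines. All values with Apc loss lay below the others. Ces2e fell by 1.46 ± 0.44 in Apc-deficient and fell by 1.66 ± 0.44 in double-deficient intestines against control (adjusted p = 0.031 and 0.03), and fell by 2.21 ± 0.44 in double-deficient against p53-deficient intestines (adjusted p = 0.012). Ces1f had 685, 276 and 325 in double-deficient, 148, 532 and 379 in Apc-deficient, 2098, 1324 and 2201 in p53-deficient and 638, 1879 and 1190 in control intestines. It was lower in Apc-deficient than in control intestines (-1.86 ± 0.54, adjusted p = 0.028), and double-deficient replicate 1 reached above the lowest control value (-1.51 ± 0.54, adjusted p = 0.079).

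The remaining Ces genes that were called differed in the comparison that called them, while Ces1d and Ces1g were called in none. Ces2a had 121, 70.8 and 32.5 in double-deficient, 42.5, 76.0 and 278 in Apc-deficient, 477, 935 and 451 in p53-deficient and 1427, 183 and 183 in control intestines. Control replicate 1 was again far above the other control arrays, and the call came in double-deficient against p53-deficient intestines alone (-3.16 ± 0.88, adjusted p = 0.047). Ces5a averaged 57.8 ± 2.57 in double-deficient and 54.3 ± 11.3 in Apc-deficient, 71.7 ± 8.34 in p53-deficient and 121 ± 11.48 in control intestines. It fell by 1.06 ± 0.20 in double-deficient (adjusted p = 0.0095) and fell by 1.17 ± 0.20 in Apc-deficient intestines (adjusted p = 0.0031), with detection on 2 Apc-deficient, 0 p53-deficient and 2 control arrays. Ces1e, undetected on all Apc-deficient arrays, averaged 36.9 ± 22.3 there against 92.0 ± 30.8 in control intestines (adjusted p = 0.037). Ces1h was called lower in double-deficient than in control intestines, at 84.4 ± 22.6 against 165 ± 18.7 (adjusted p = 0.016), but was undetected on all control arrays, so no fold is given. Ces2g averaged 302 ± 131.3 in double-deficient, 166 ± 44.7 in Apc-deficient, 811 ± 219 in p53-deficient and 368 ± 160 in control intestines and was called in double-deficient against p53-deficient intestines alone (-1.50 ± 0.42, adjusted p = 0.049), a call at the edge of the threshold.

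UDP-glucuronosyltransferases of the Ugt2 family attach glucuronic acid to steroids, bile acids and drugs, and all 6 members lie on chromosome 5. Ugt2b5 had 4.21, 0.977 and 0.709 in double-deficient and 1.10, 1.95 and 2.42 in Apc-deficient, against 77.1, 178 and 76.4 in p53-deficient and 119, 56.7 and 101 in control intestines. It was undetected on all 3 Apc-deficient arrays and detected on 2 p53-deficient and 3 control arrays. Every value with Apc loss lay below every value without it. Apc-deficient signals were at least 9.99-fold lower than those of controls (adjusted p = 0.00067). Double-deficient signals were also called lower against control (adjusted p = 0.0012) and against p53-deficient intestines (adjusted p = 0.0013), and no fold is given for them because they lay as low as the undetected Apc-deficient signals. These calls were kept under every alternative run that held Ugt2b5, which is not among the members detected in each genotype with detection.

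Ugt2a3 had 233, 123 and 95.2 in double-deficient, 50.1, 109 and 339 in Apc-deficient, 464, 1232 and 574 in p53-deficient and 996, 433 and 607 in control intestines. The arrays with Apc loss lay below the others, and it fell by 2.38 ± 0.65 in Apc-deficient and fell by 2.19 ± 0.65 in double-deficient intestines (adjusted p = 0.022 and 0.045). Ugt2b1, at 39.6 ± 1.60 in double-deficient, 28.7 ± 2.71 in Apc-deficient, 57.8 ± 6.63 in p53-deficient and 68.9 ± 17.8 in control intestines, was undetected in Apc-deficient intestines and was called lower there than in controls (adjusted p = 0.0032). Ugt2b36 fell by 1.19 ± 0.34 in Apc-deficient intestines against control (adjusted p = 0.025) and fell by 1.21 ± 0.34 in double-deficient against p53-deficient intestines (adjusted p = 0.047). Both remaining Ugt2 genes were not called. Ugt2b34 averaged 2316 ± 703 in double-deficient, 2836 ± 965 in Apc-deficient, 4483 ± 941 in p53-deficient and 3274 ± 241 in control intestines. Ugt2b35 had 818, 569 and 403 in double-deficient, 1878, 610 and 1621 in Apc-deficient, 821, 1136 and 593 in p53-deficient and 545, 706 and 647 in control intestines, and the Apc-deficient values included the 2 highest (0.97 ± 0.43 against control, adjusted p = 0.12).

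Glutathione S-transferases couple glutathione to electrophiles. Gsta4, which detoxifies the lipid peroxidation product 4-hydroxynonenal, had 229, 119 and 129 in double-deficient, 113, 187 and 163 in Apc-deficient, 1623, 601 and 672 in p53-deficient and 490, 1091 and 2662 in control intestines. No value with Apc loss reached the lowest value of the other genotypes. Gsta4 fell by 2.89 ± 0.58 in Apc-deficient and fell by 2.89 ± 0.58 in double-deficient intestines against control (adjusted p = 0.0059 and 0.012). Gstm3 had 749, 517 and 746 in double-deficient, 294, 615 and 628 in Apc-deficient, 2908, 2980 and 1819 in p53-deficient and 2992, 3643 and 2192 in control intestines. The groups with Apc loss did not overlap the others, and Gstm3 fell by 2.57 ± 0.35 in Apc-deficient and fell by 2.12 ± 0.35 in double-deficient intestines against control (adjusted p = 0.0012 and 0.0058). A second Gstm3 probe set gave -4.20 and -2.34 in the same comparisons, of which the change in double-deficient intestines was not called (adjusted p = 0.0042 and 0.062). The main probe set is marked as matching several transcripts, and mu-class genes are close copies of each other, so the share of each gene is uncertain.

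The theta-class genes Gstt1 and Gstt3 and the kappa-class gene Gstk1 had lower signals on every Apc-deficient array than on any double-deficient array. Gstt3 averaged 294 ± 14.7 in double-deficient, 206 ± 60.9 in Apc-deficient, 642 ± 64.3 in p53-deficient and 601 ± 130 in control intestines, and fell by 1.56 ± 0.26 in Apc-deficient and fell by 1.01 ± 0.26 in double-deficient intestines against control (adjusted p = 0.0027 and 0.027). Gstt1 averaged 371 ± 14.5 in double-deficient, 224 ± 86.2 in Apc-deficient, 954 ± 257 in p53-deficient and 594 ± 136 in control intestines. It fell by 1.46 ± 0.32 in Apc-deficient intestines against control (adjusted p = 0.0088) and fell by 1.33 ± 0.32 in double-deficient against p53-deficient intestines (adjusted p = 0.028). Gstk1, a mitochondrial and peroxisomal enzyme, averaged 358 ± 35.8 in double-deficient, 214 ± 103 in Apc-deficient, 624 ± 80.7 in p53-deficient and 540 ± 57.1 in control intestines and was called in Apc-deficient intestines (-1.48 ± 0.35, adjusted p = 0.013) but not in double-deficient intestines (-0.60 ± 0.35, adjusted p = 0.26). The difference between double-deficient and Apc-deficient intestines was not called for any of these 3 genes (0.56 for Gstt3, 0.81 for Gstt1 and 0.88 for Gstk1, adjusted p = 0.31, 0.25 and 0.25).

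Gst genes of the omega and pi classes stayed uncalled. Gstp1, the pi-class enzyme that many tumours make in quantity, averaged 4560 ± 635 in double-deficient, 5381 ± 1411 in Apc-deficient, 7250 ± 1082 in p53-deficient and 5927 ± 703.9 in control intestines. Its change in Apc-deficient intestines was -0.16 ± 0.23 (95% CI -0.67 to 0.35). Gsto1 averaged 4179 ± 583 in double-deficient, 4838 ± 1452 in Apc-deficient, 6349 ± 253 in p53-deficient and 4672 ± 634 in control intestines, with a change of 0.01 ± 0.25 in Apc-deficient intestines that was -0.64 in the deposited normalised table, whose scale was inferred from its values.

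Cytosolic sulfotransferases transfer sulfate to hormones, phenols and drugs. Sult2b1, which sulfates cholesterol and other hydroxysteroids, had 360, 377 and 213 in double-deficient, 155, 391 and 434 in Apc-deficient, 1634, 1850 and 1266 in p53-deficient and 1585, 1399 and 1103 in control intestines. Both genotypes with Apc loss lay below all others and overlapped each other. Sult2b1 fell by 2.18 ± 0.39 in Apc-deficient and fell by 2.14 ± 0.39 in double-deficient intestines against control (adjusted p = 0.0036 and 0.0084), and fell by 2.35 ± 0.39 in double-deficient against p53-deficient intestines (adjusted p = 0.0062). Sult1d1, a sulfotransferase of catecholamines and phenols in mice, had 775, 493 and 571 in double-deficient, 232, 741 and 1087 in Apc-deficient, 2058, 2925 and 1757 in p53-deficient and 2243, 1860 and 1994 in control intestines. It fell by 1.82 ± 0.47 in Apc-deficient and fell by 1.75 ± 0.47 in double-deficient intestines (adjusted p = 0.018 and 0.032), without overlap. A second Sult1d1 probe set gave -0.94 in Apc-deficient intestines, which was not called (adjusted p = 0.18), and -1.75 in double-deficient intestines (adjusted p = 0.038). Sult1b1, which sulfates thyroid hormones, fell by 1.93 ± 0.51 in Apc-deficient intestines (adjusted p = 0.019), with 158, 405 and 900 there against 2126, 1284 and 1160 in control intestines. Sult1a1, a phenol sulfotransferase, had 222, 209 and 277 in double-deficient, 134, 200 and 256 in Apc-deficient, 84.1, 165 and 16.3 in p53-deficient and 113, 106 and 178 in control intestines. The double-deficient values lay above all p53-deficient and control values, but no change of Sult1a1 was called.

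The effect of p53 loss in Apc-deficient intestine was then followed across members. Double-deficient values lay wholly above Apc-deficient values for 12 members, beside 5.34% of all genes under the rule, and wholly below for 0 members, beside 17.1%. The 12 were 4 Cyp2 genes (Cyp2b9, Cyp2c29, Cyp2c65 and Cyp2d13), 6 Gst genes (Gstk1, Gstm2, Gstm4, Gstm7, Gstt1 and Gstt3), Ces4a and Ugt2b1. Ces4a and Ugt2b1 were undetected on all Apc-deficient arrays and Cyp2d13 was detected on 1 of them, so these signals lie near the detection limit. Of 38 members detected on all 9 arrays, 7 lay wholly above (beside 329 of 8157 genes so detected) and 0 wholly below (beside 1539). The members' median difference was 0.23 against -0.13 for all genes, and by family it was 0.44 in Cyp2, 0.39 in Gst, 0.23 in Ces, 0.21 in Sult, 0.19 in Cyp4, -0.03 in Cyp3 and -0.04 in Ugt2. Without Apc-deficient replicate 1 the members' median was 0.06, and without double-deficient replicate 1 it was 0.14. The differences of single genes ranged up to 1.46 ± 1.08 for Cyp3a25 (adjusted p = 0.53) and 1.46 ± 0.29 for Cyp2c65 (adjusted p = 0.065), followed by Cyp2c29 at 0.90 ± 0.24 (adjusted p = 0.12).

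**Figure D4:**
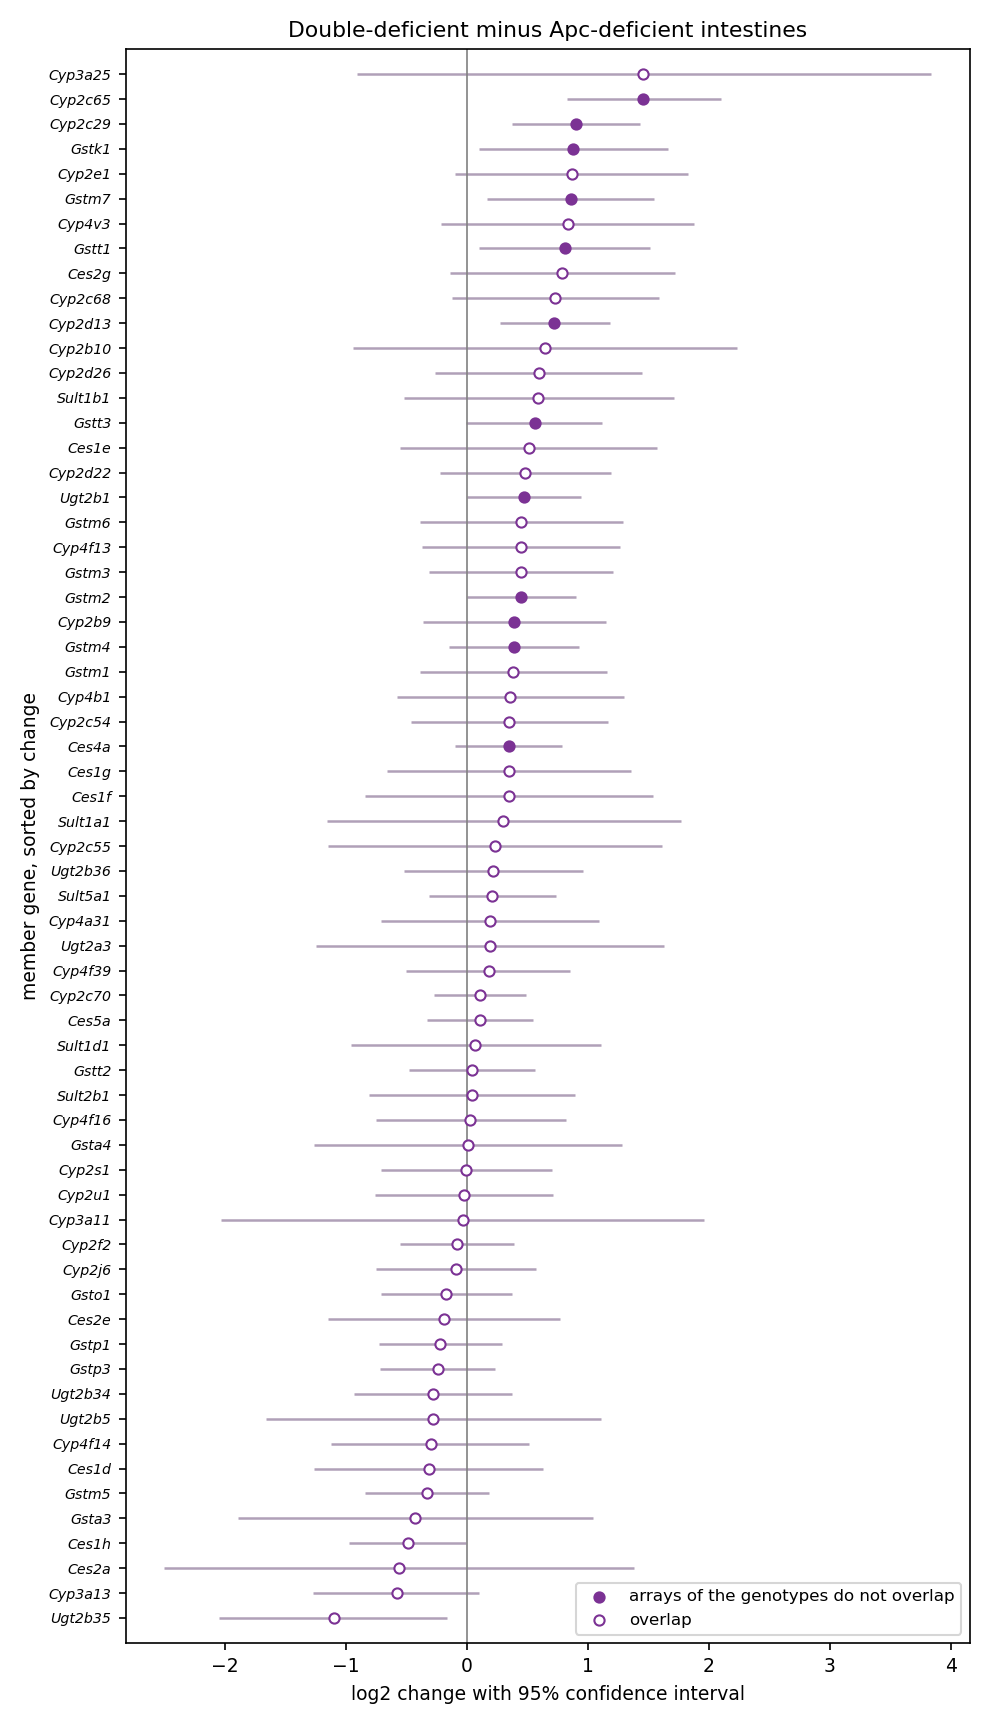
Log2 change of each of the 63 members in double-deficient against Apc-deficient intestines, sorted, with 95% confidence intervals from limma and filled points where the 3 arrays of both genotypes do not overlap. All 12 filled points lie above 0, up to Cyp2c65 at 1.46, and 0 members passed the adjusted threshold. Of these, Ces4a and Ugt2b1 were undetected on all Apc-deficient arrays, so their points give no size.

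Whether the 2 losses combined other than by addition of their log2 changes was tested as the interaction of Apc and p53 loss. It gave 0 calls among members, beside 0% of all genes under the rule, with 5 members above 0 (beside 2.74%) and 1 below 0 (beside 13.9%) at an unadjusted p under 0.05. The lowest adjusted p among members was that of Cyp2c29, at 1.85 ± 0.34 (adjusted p = 0.12), and Cyp2c65 had 1.32 ± 0.41 (adjusted p = 0.23).

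Genes around these enzymes were followed as lists. Among all genes under the rule, 23.9% were higher and 10.8% lower in Apc-deficient, and 11.4% and 7.62% in double-deficient intestines against control. Among 10 sensors and regulators of drug metabolism, 3 were lower and 1 was higher in Apc-deficient intestines, and 1 was lower in double-deficient intestines. Ppara, the fatty acid receptor that drives Cyp4a genes, had a log2 change of -1.49 in double-deficient intestines against control (adjusted p = 0.0082). It was undetected on all Apc-deficient arrays and was called lower there than in controls (adjusted p = 0.0014), at 65.1 ± 10.1 against 256 ± 68.4. Nfe2l2, which encodes NRF2, had a change of -1.04 and Nr1h3, an oxysterol receptor, of -0.93 in Apc-deficient intestines (adjusted p = 0.03 and 0.024), while the bile acid receptor gene Nr1h4 rose by 0.70 (adjusted p = 0.03). Ahr, the receptor of β-naphthoflavone, changed by -0.09 (adjusted p = 0.83) and Nr1i2, the pregnane X receptor gene, by 0.57 (adjusted p = 0.42), neither being called.

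Of 21 other drug-metabolising enzymes, 4 were lower and 1 higher in double-deficient, and 10 were lower and 1 higher in Apc-deficient intestines against control. The shares of all genes under the rule were 7.62% lower and 11.4% higher in double-deficient, and 10.8% and 23.9% in Apc-deficient intestines. Fmo5, a flavin monooxygenase, had log2 changes of -1.82 in double-deficient and -2.92 in Apc-deficient intestines (adjusted p = 0.029 and 0.0025). Mgst2, a microsomal glutathione transferase, had -1.69 and -1.89 in the same order (adjusted p = 0.013 and 0.0043). Pon2, a lactonase, rose by 0.87 in double-deficient and 0.81 in Apc-deficient intestines (adjusted p = 0.023 and 0.018). Nqo1, the quinone reductase induced through NRF2 and the aryl hydrocarbon receptor, had a change of -0.51 in Apc-deficient intestines and was not called (adjusted p = 0.22). Of 12 genes for cofactor supply and redox partners, Gclc, the catalytic subunit of glutathione synthesis, rose by 1.16 in Apc-deficient intestines (adjusted p = 0.035), and Cyb5a, an electron donor of P450 enzymes, fell by 0.91 (adjusted p = 0.03). In double-deficient intestines 0 of these 12 were called against control.

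Drug transporters moved in both directions. Of 10 measured, 1 was higher and 4 lower in double-deficient intestines against control, beside 11.4% higher and 7.62% lower of all genes under the rule. In Apc-deficient intestines 3 were higher and 4 lower, beside 23.9% and 10.8%, so the calls of higher signal lay near the share of all genes. The export pump gene Abcc1 rose by 1.45 in double-deficient and 1.61 in Apc-deficient intestines (adjusted p = 0.0072 and 0.0021). The organic anion carrier Slco3a1 rose by 1.35 in Apc-deficient intestines (adjusted p = 0.016). Abcc4 was also called higher there than in controls (adjusted p = 0.0087), at 371 ± 155 against 130 ± 37.5. It was undetected on all control arrays, so no size is given. Slco2b1, an uptake carrier of enterocytes, had log2 changes of -2.06 in double-deficient and -1.98 in Apc-deficient intestines (adjusted p = 0.0021 and 0.00093). The changes in the same order were -1.32 and -1.44 for Abcc3 (adjusted p = 0.015 and 0.0056) and -1.08 and -0.93 for Abcg2 (adjusted p = 0.02 and 0.022).

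**Figure D5:**
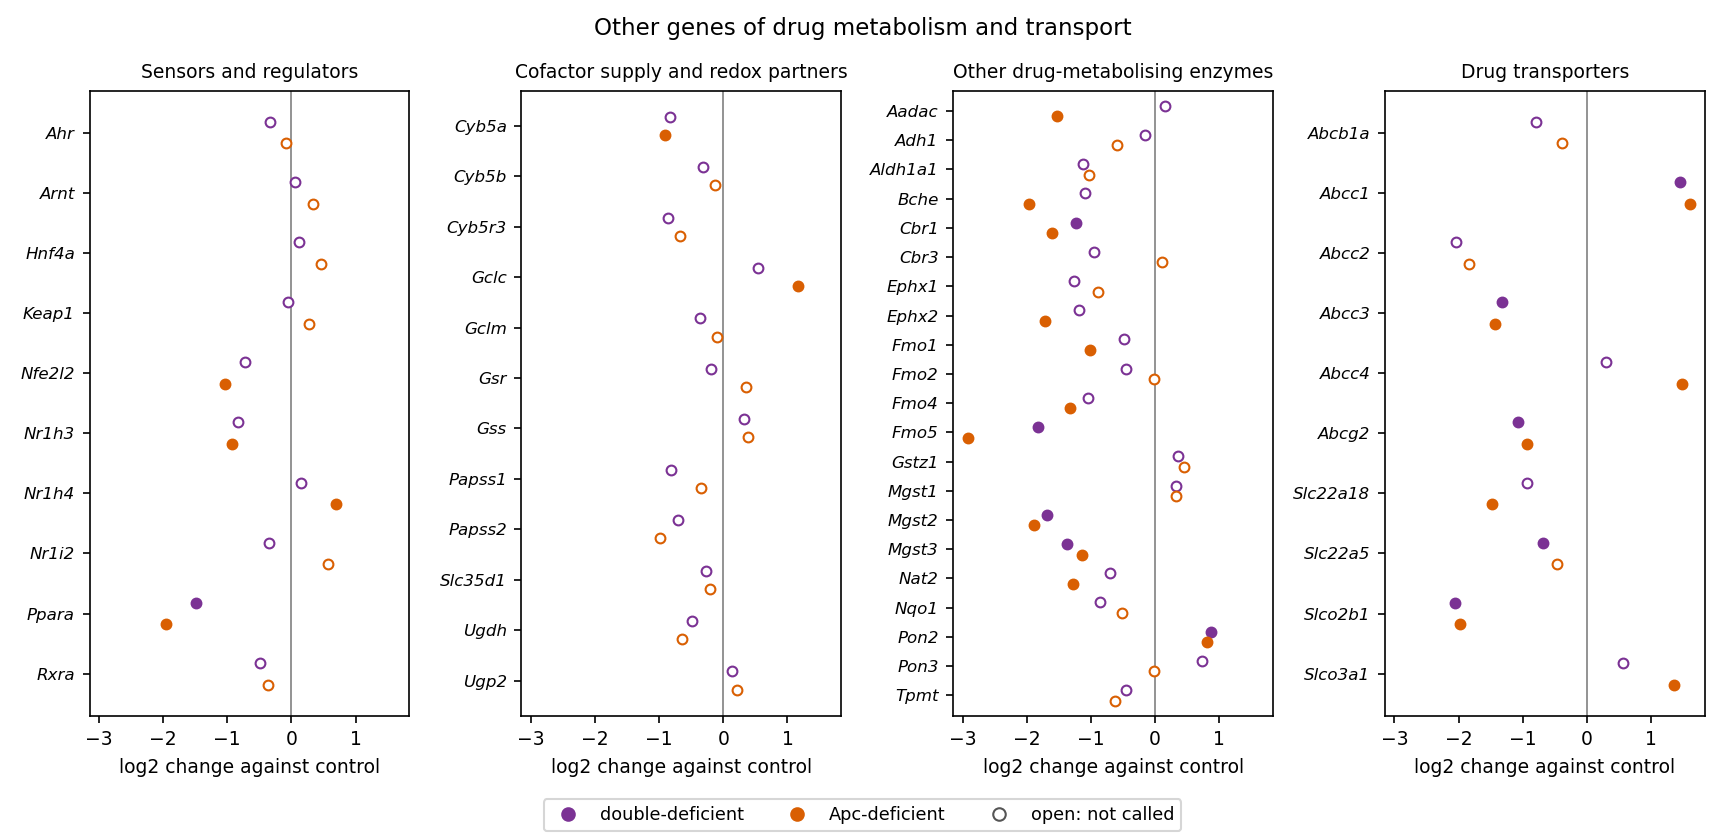
Log2 change against control of each measured gene of the 4 lists around the enzymes, in double-deficient and Apc-deficient intestines (points; filled where called by limma at an adjusted p under 0.05). In Apc-deficient intestines 3 of 10 drug transporters are filled above 0 and 4 below 0, whereas of 21 other drug-metabolising enzymes 1 is filled above and 10 below. Among all genes under the rule, 23.9% were called higher and 10.8% lower there. The Apc-deficient points of Ppara and Fmo4 and the points of Abcc4 rest on a genotype without detection and give no size.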

How the data were processed

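Per the labels, total RNA of small intestine was biotin-labelled and hybridised to Affymetrix arrays. Each array measured 45101 probe sets, of which 64 are AFFX controls, and the authors deposited a signal (a linear intensity) with its detection p-value. A second table that the authors deposited holds normalised scores of 34271 probe sets. Their scale is not stated and was inferred from the values to be the log signal less the array mean over the standard deviation, and they were multiplied by the mean standard deviation of the log2 signals before use. The sources used here do not name the software behind the signals. Detection was read on 9 arrays instead of the 12 planned. The 3 detection columns of the double-deficient arrays name a genotype but no mouse and were not used, so detection in those arrays is not described and genes detected only there were not tested. The screen kept 35622 probe sets whose detection p fell below 0.2 on any of the 9 arrays. Signals under 1 (775 values) were set to 1, and log2 values were centred per array on the mean. One limma model (limma 3.58.1, R 4.3.3) with a mean per genotype and 8 residual degrees of freedom was fitted, which was tested on simulated data first, and p-values were adjusted over the whole table by Benjamini-Hochberg. Probe sets were named from a platform table: 27434 had 1 symbol, 749 several and 7439 none. Where a gene had no detection p under 0.05 among the 3 arrays of a genotype, the group means or a lower bound of the fold are given, the bound only where the undetected signals lay below the lowest detected signal. Members and lists were chosen with earlier results of these data known. Named members were the 2 of highest mean signal per family, the up to 4 with the largest called change per family against control, and those called in the other comparisons. Replicates are numbered in accession order and are separate intestinal samples, and their number, 3 per genotype, limits the precision. Alternatives were quantile normalisation, the deposited table, no scaling, no screen, a screen on 3 arrays, a floor of 20, a variance trend, only the compared genotypes, other choices of probe set, members detected in each genotype with detection, and leaving out arrays.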

Additional observations from a re-analysis of the deposited data

How the results depend on the processing

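With no scaling between arrays, 52 members were called in Apc-deficient and 3 in p53-deficient against control intestines, 1 in double-deficient against Apc-deficient intestines and 15 in the interaction, whose median over all probe sets moved to 0.96. Over all probe sets the calls in these comparisons were 34.6%, 6.87%, 0.539% and 12.5% without scaling, against 27.1%, 0.342%, 0.182% and 0.0112% with it. Without scaling the same median, against control, was -0.26 for double-deficient, -0.66 for Apc-deficient and -0.56 for p53-deficient intestines. With only the compared genotypes in the fit, which leaves fewer samples, 17 members were called in Apc-deficient intestines against control (16.1% of all probe sets). Without both arrays with pancreas transcripts, the calls numbered 3 in double-deficient against control and 6 in double-deficient against p53-deficient intestines, beside 2.53% and 2.23% of all probe sets. A floor of 20 and the screen on 3 arrays each gave 1 call (Ces1h) in p53-deficient against control, and the floor, that screen and the variance trend each gave 1 call (Cyp2c65) in double-deficient against Apc-deficient intestines. Leaving out 1 array gave 23–32 calls in Apc-deficient, 0–0 in p53-deficient and 8–23 in double-deficient against control, 0–0 in double-deficient against Apc-deficient, 9–24 in double-deficient against p53-deficient intestines and 0–0 in the interaction. For double-deficient against p53-deficient intestines, 9 and 10 members were called without double-deficient replicates 2 and 3, and 12, 10 and 12 without p53-deficient replicates 1, 2 and 3. Calls kept under all alternatives numbered 17 of 32 in Apc-deficient and 2 of 21 in double-deficient against control and 5 of 21 in double-deficient against p53-deficient intestines. The limit to members detected in each genotype with detection does not enter this count, which includes Ugt2b1 and Ugt2b5. Gsto1 turned to -0.64 in Apc-deficient intestines in the deposited normalised table, where the main value was 0.01 and the table's scale was inferred, and the cause was not tested. The interaction was not run with only the compared genotypes, since it needs all 4. No paired analysis was possible because the labels give no replicate numbers. Values of undetected genes are limited by the signal over background.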

Other observations

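Control replicate 1 held the highest control value of several members, which were chosen after their values had been seen. Cyp2b10 had 2102 there against 476 and 488 on the other control arrays, Ces2a 1427 against 183 and 183, Cyp3a25 2810 against 373 and 612, and Cyp2c55 882 against 239 and 207. Other members went the other way on that array. The median difference from the control mean was 0.34 for Cyp2 genes there, against -0.15 and -0.17 on control replicates 2 and 3. For Gst genes it was -0.33, against 0.19 and 0.09. The same array had the lowest summed signal of 7 smooth muscle genes, at 2135 against 8959 and 10106 on the other control arrays. Control replicate 3 held the highest values of the alpha-class genes Gsta3 (222, against 32.8 and 56.4) and Gsta4 (2662, against 490 and 1091). Of 6 goblet cell genes, 1 was lower in double-deficient and 4 in Apc-deficient intestines against control, and of 5 Paneth cell genes 4 were higher in both. Leukocyte genes were lower for 3 of 7 in double-deficient and 4 of 7 in Apc-deficient intestines, smooth muscle genes were called for 0 of 7 in both, ileum genes were lower for 2 of 3 in both, and of 9 proximal small intestine genes 1 was higher and 3 lower with both losses, against 1 higher and 4 lower with Apc loss alone. Among all genes under the rule, 7.62% were lower and 11.4% higher in double-deficient, and 10.8% and 23.9% in Apc-deficient intestines against control. With p53 loss alone, 0 of 5 Paneth cell genes were called against control (beside 0.13% of all genes), with a median change of 1.16. In double-deficient against p53-deficient intestines, 1 of 5 Paneth cell genes was higher (median 0.11, beside 5.97% of all genes). Goblet cell genes were lower for 5 of 6 in that comparison (beside 8.12%). The part of these cells in the members' values was not tested.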
